A study of Mus musculus with 4 samples.

Results

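The 10 genes described here encode chemokines (Ccl6, Ccl9, Ccl28 and Cxcl16), the Kit ligand Kitl and its receptor Kit, the cytokines Il18 and Tnfsf10, and the growth factors Vegfa and Pdgfa. They were chosen by symbol and not by a cut on their measured values, though earlier results of these data were known. All 10 were found among the 14519 gene entries of the table. Kit, the receptor, is the 1 gene of the 10 that does not encode a ligand. RNA was measured in cells sorted from the epithelium of the mouse colon, in 2 libraries of Reg4+ DCS cells (deep crypt secretory cells carrying a Reg4-dsRed reporter) and 2 libraries of Lgr5+ cells (stem cells carrying an Lgr5-GFP reporter). The sorting and library preparation were run in 2 rounds, which the design text calls biological replicates. Both populations are thus defined by reporter fluorescence driven from 1 gene each. The strain, the age and number of the mice, whether animals were pooled, how the reporter alleles were made and whether the 2 alleles were in the same mice are not stated in the labels or design text used here.

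Chemokines are small secreted proteins that guide leukocytes through G protein-coupled receptors, and several of them are made by the intestinal epithelium. Kit is a receptor tyrosine kinase that is activated by Kitl (stem cell factor), and in the mouse colon it is known as a surface marker of secretory cells that lie next to Lgr5+ stem cells at the crypt base. Il18 is stored as a precursor that is cleaved by caspase-1 in inflammasomes, Tnfsf10 (TRAIL) binds death receptors, Vegfa acts on endothelium, and Pdgfa acts on mesenchymal cells that bear Pdgfra.

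Levels are given as RPM, a gene's reads scaled so that each library sums to 1000000. CEL-seq reads the 3′ end of each transcript, so an RPM does not scale with transcript length. How reads were counted per gene is not given. Comparisons of level between different genes below therefore hold for RPM and not for numbers of transcripts. The RPM steps gave read totals of 5523304 and 1890960 for the parts averaged in Reg4+ DCS replicate 1, 3004289 and 2443971 for those of Reg4+ DCS replicate 2, and 5205723 and 7955340 for Lgr5+ replicates 1 and 2. Both sort markers were higher in the population sorted for them. Reg4 stood at 6187 and 5899 RPM in Reg4+ DCS libraries, against 796 and 363 RPM in Lgr5+ libraries, and Lgr5 at 0.989 and 3.13 RPM in Reg4+ DCS libraries, against 46.5 and 48.8 RPM in Lgr5+ libraries. Summed levels of 7 epithelial markers were 9632 and 10660 RPM in Reg4+ DCS libraries and 12905 and 10998 RPM in Lgr5+ libraries. Of 24 leukocyte markers, 14 were among the entries, with sums of 16.1 and 14.5 RPM in Reg4+ DCS libraries and 72.4 and 44.1 RPM in Lgr5+ libraries, and 9 of the 14, Ptprc included, had a listed value of 0 in both Reg4+ DCS libraries. Ptprc (CD45), the common leukocyte marker, stood at 40.1 and 9.55 RPM in Lgr5+ libraries. Lcp1 stood at 14.3 and 12.9 RPM in Reg4+ DCS libraries and 19.4 and 27.0 RPM in Lgr5+ libraries. Lcp1 made up most of the Reg4+ DCS sums, and Ptprc with Lcp1 most of the Lgr5+ sums. No other leukocyte marker among the entries was above 2.31 RPM (Cd68) in any library. Zeros were shared between libraries to a high degree. Each Reg4+ DCS library listed 1645 genes at 0, of which 1641 were the same genes, and the Lgr5+ libraries listed 310 and 308, of which 308 were shared. A listed 0 therefore cannot be told apart from a gene that was left out of a population's counts, and is not read as absence of the RNA. In bulk RNA of sorted cells, fewer cells of a type and less RNA per cell cannot be told apart.

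All 10 genes passed the filter of at least 5 RPM in at least 2 libraries. Tnfsf10 did so only through its Lgr5+ libraries, so the filter set its direction. By limma on log2(RPM + 1), with Benjamini-Hochberg adjustment over all 10183 genes tested and a threshold of 0.05, 1 of the 10 genes (Ccl6) was higher in Reg4+ DCS cells and 5 (Ccl28, Kitl, Tnfsf10, Vegfa and Pdgfa) were higher in Lgr5+ cells. The other 4 (Ccl9, Cxcl16, Kit and Il18) did not pass the test. Among all tested genes 7.18% were called higher in Reg4+ DCS cells, while 26.9% were called higher in Lgr5+ cells. Both Reg4+ DCS libraries lay above both Lgr5+ libraries for 3 of the 10 genes (Ccl6, Kit and Il18), which was the case for 16.1% of all tested genes. They lay below both Lgr5+ libraries for the 5 genes called in that direction, where 56.2% of all tested genes did so. The groups overlapped for Ccl9 and Cxcl16. The median log2 fold change (Reg4+ DCS minus Lgr5+) was −0.69 over the 10 genes and −0.47 over all tested genes. Scaling by median-of-ratios size factors in place of the deposited RPM moved the median of all tested genes to 0.02 and that of the 10 genes to −0.22, and the share of all calls that were higher in Lgr5+ cells to 44.9%, against 79.0% on the RPM scale. Under that scaling 3 of the 10 genes (Ccl6, Kit and Il18) were called higher in Reg4+ DCS cells, against 15.6% of all tested genes, and 4 (Ccl28, Kitl, Tnfsf10 and Pdgfa) higher in Lgr5+ cells, against 12.7%.

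**Figure D1:**
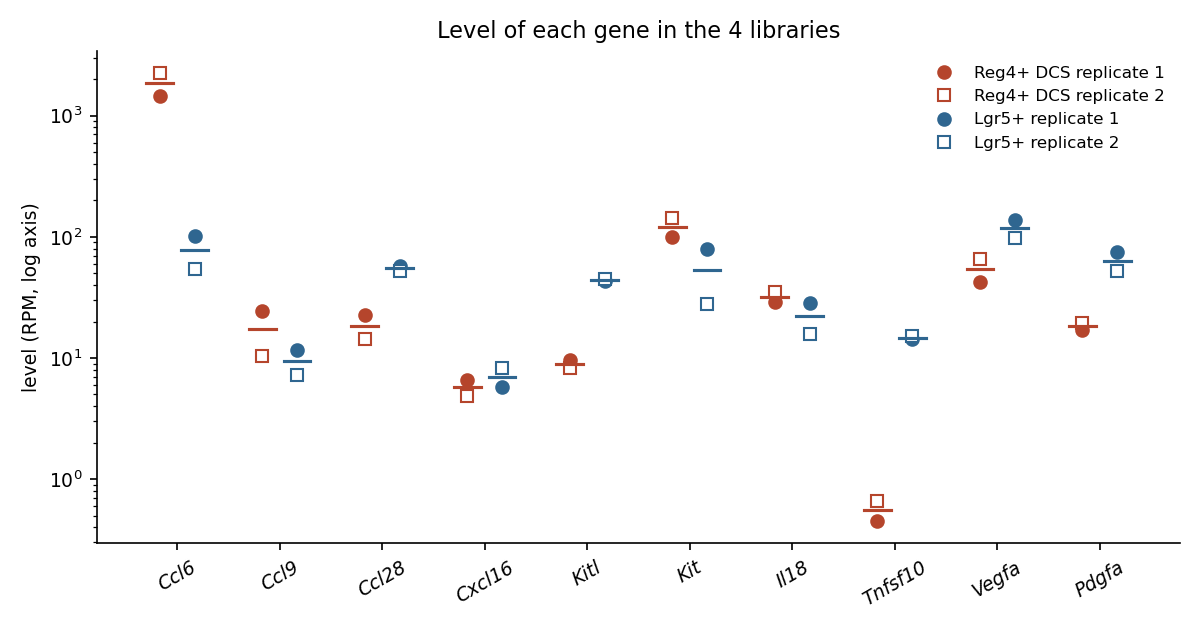
Level of each of the 10 genes in every library (RPM, log axis), with Reg4+ DCS libraries in red left of Lgr5+ libraries in blue and a bar at the mean of each pair. Ccl6 lies at 1449 and 2245 RPM in Reg4+ DCS libraries, above 101 and 53.8 RPM in Lgr5+ libraries, while Tnfsf10 lies under 1 RPM in both Reg4+ DCS libraries.

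Among the chemokines, the direction differed from gene to gene. Ccl6, a mouse chemokine that attracts myeloid cells through Ccr1, stood at 1449 and 2245 RPM in Reg4+ DCS libraries, against 101 and 53.8 RPM in Lgr5+ libraries. Both Reg4+ DCS libraries were far above both Lgr5+ libraries. The mean level was 1847 ± 563 RPM for Reg4+ DCS and 77.4 ± 33.4 RPM for Lgr5+ cells (SD, n = 2 libraries each, as for every mean below), a ratio of mean RPM of 23.9, and the log2 fold change was 4.59 (SE 0.35, limma adjusted p = 0.000175). Goblet cell markers moved in the same direction, with 13 of 14 higher in Reg4+ DCS cells, a median log2 fold change of 4.61, and sums of 223110 and 142432 RPM in Reg4+ DCS libraries, against 7097 and 2625 RPM in Lgr5+ libraries. The mucin Muc2, for one, had a ratio of mean RPM of 25.8, and the part of goblet-type cells in the Ccl6 level was not tested. Without 1 library the Ccl6 ratio ranged from 18.3 to 34.3, and the call was kept under each of 13 alternatives. Ccl6 was the 45th gene of 14519 by mean level in Reg4+ DCS cells and the 2280th in Lgr5+ cells. These levels rest on 10880 reads in Reg4+ DCS replicate 1 and on 526 and 428 reads in the Lgr5+ libraries. In Reg4+ DCS replicate 1 the parts averaged in the column stood at 1487 and 1410 RPM. E230016K23Rik, a non-coding gene on the opposite strand that covers the 3′ end of Ccl6, was at 1.26 and 1.45 RPM in Reg4+ DCS libraries, against 1.15 and 0.251 RPM in Lgr5+ libraries, and the labels used here do not say whether counting used the strand.

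Ccl9, like Ccl6 a mouse CC chemokine that acts through Ccr1, lies next to Ccl6 on chromosome 11. In GRCm38 (the same assembly as mm10), Ccl9 spans chr11:83572919-83578636 and Ccl6 chr11:83587882-83593087, both on the minus strand, 9245 bases apart. No annotated gene lies wholly between them, and E230016K23Rik, on the plus strand, covers 5826 bases of the gap on its way across Ccl6. Ccl9 had 24.2 and 10.4 RPM in Reg4+ DCS libraries, against 11.7 and 7.29 RPM in Lgr5+ libraries. Its groups overlapped, since Reg4+ DCS replicate 2 lay below Lgr5+ replicate 1. The mean was 17.3 ± 9.80 RPM for Reg4+ DCS and 9.50 ± 3.13 RPM for Lgr5+ cells, and the log2 fold change of 0.72 (95% interval −0.28 to 1.72) did not pass the test (limma adjusted p = 0.222). The ratio of Ccl6 to Ccl9 on the RPM scale was 59.8 and 217 in Reg4+ DCS libraries and 8.62 and 7.38 in Lgr5+ libraries. So the 2 neighbours stood at unlike levels in both populations, and further apart in both Reg4+ DCS libraries. In the last 500 bases of their transcripts, no run of 50 bases was shared with another gene for either of them, nor for the other 8 genes.

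The windows of 250 bases before the annotated start of both neighbours, and of Ccl28, the chemokine that was higher in Lgr5+ cells, are printed to show what the adjacent promoters share and where they part (RefSeq, GRCm38.p6, 5′ to 3′ on the strand of the gene). The regions are chr11:83593088-83593337 on the minus strand for Ccl6, chr11:83578637-83578886 on the minus strand for Ccl9 and chr13:119623569-119623818 on the plus strand for Ccl28. Capitals mark CAGCTG, an E-box, and ACTTCC, an ETS core, which were searched on both strands, do not overlap each other and were chosen after the sequences were seen.
Ccl6: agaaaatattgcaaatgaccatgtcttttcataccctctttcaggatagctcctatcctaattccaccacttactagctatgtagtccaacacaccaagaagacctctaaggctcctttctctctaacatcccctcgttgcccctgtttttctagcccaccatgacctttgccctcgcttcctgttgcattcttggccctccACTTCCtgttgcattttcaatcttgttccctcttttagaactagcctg
Ccl9: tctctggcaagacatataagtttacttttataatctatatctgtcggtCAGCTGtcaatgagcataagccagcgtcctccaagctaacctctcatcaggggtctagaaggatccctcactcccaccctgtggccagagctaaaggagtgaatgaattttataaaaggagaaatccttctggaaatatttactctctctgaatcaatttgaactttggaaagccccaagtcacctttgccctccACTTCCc
Ccl28: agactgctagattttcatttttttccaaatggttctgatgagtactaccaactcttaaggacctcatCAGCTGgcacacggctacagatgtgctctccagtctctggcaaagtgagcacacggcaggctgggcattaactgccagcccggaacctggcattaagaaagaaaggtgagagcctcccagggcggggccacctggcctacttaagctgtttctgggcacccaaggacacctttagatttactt
ACTTCC began 48 bases before the start in Ccl6 and 7 bases before it in Ccl9, and CAGCTG began 202 bases before the start in Ccl9 and 183 bases before it in Ccl28. The Ccl6 window held no CAGCTG. Of 32851 RefSeq promoters, 13.001% held CAGCTG and 19.7% held ACTTCC in the same window, and the windows of the other members that were matched held neither. Aligned to each other, the Ccl6 and Ccl9 windows had 135 identical bases, 79 mismatches and 72 gap bases, or 63.1% identity over aligned bases. Their longest shared run was the 13 bases gccctccacttcc, which began 55 bases before the start of Ccl6 and 14 bases before that of Ccl9. These matches describe letters only, and binding was not measured.

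Ccl28, a mucosal chemokine that recruits IgA plasma cells through Ccr10, ran the other way from Ccl6. It had 22.7 and 14.3 RPM in Reg4+ DCS libraries, against 57.8 and 52.2 RPM in Lgr5+ libraries (chr13:119623819-119654359, plus strand). Both Lgr5+ libraries were above both Reg4+ DCS libraries. The mean of 18.5 ± 5.96 RPM for Reg4+ DCS and 55.0 ± 3.999 RPM for Lgr5+ cells gave a level 2.97-fold higher in Lgr5+ cells and a log2 fold change of −1.55 (SE 0.30, limma adjusted p = 0.00631). The call was lost in edgeR's count test on recovered reads (log2 fold change −1.03, adjusted p = 0.0560). Ccr10, its receptor, was listed at 0 in either Reg4+ DCS library, against 0.384 and 0.126 RPM in Lgr5+ libraries.

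Cxcl16, a membrane-anchored chemokine for Cxcr6-bearing lymphocytes, had the lowest mean level of the 4 chemokines in both populations, though in Lgr5+ cells it overlapped with Ccl9. It had 6.61 and 4.81 RPM in Reg4+ DCS libraries and 5.76 and 8.30 RPM in Lgr5+ libraries (chr11:70453983-70459984, minus strand). The groups overlapped. These levels rest on 48 and 25 reads in Reg4+ DCS libraries and on 30 and 66 reads in Lgr5+ libraries. Its log2 fold change of −0.25 (95% interval −1.05 to 0.54) did not pass the test (limma adjusted p = 0.586), and its sign was positive under median-of-ratios scaling (0.19) and in edgeR (0.10). Zmynd15, which overlaps Cxcl16 on the opposite strand, was listed at 0 in either Reg4+ DCS library, against 0.384 and 0.377 RPM in Lgr5+ libraries.

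Of 37 chemokine ligands in the list used, 19 were among the entries and 10 were tested, and 2 were higher in Reg4+ DCS cells, while 3 were called higher in Lgr5+ cells. The list median was −0.15, against −0.47 over all tested genes, of which 7.18% and 26.9% were called in these directions. Outside the 4 chemokines above, 6 were tested and 3 changed. Cx3cl1 (fractalkine), a membrane-tethered chemokine for Cx3cr1-bearing macrophages, had 42.8 and 57.8 RPM in Reg4+ DCS libraries, against 19.6 and 9.05 RPM in Lgr5+ libraries. Its log2 fold change of 1.82 (limma adjusted p = 0.00889) missed the threshold without Reg4+ DCS replicate 2 (adjusted p = 0.0591). Ccl25, the ligand of the gut-homing receptor Ccr9, had 0.981 and 2.84 RPM in Reg4+ DCS libraries, against 7.49 and 11.2 RPM in Lgr5+ libraries (log2 fold change −1.88, limma adjusted p = 0.0122, and 0.0804 without Reg4+ DCS replicate 1). Ccl20, the ligand of Ccr6, had 2.95 and 1.65 RPM in Reg4+ DCS libraries and 9.60 and 5.66 RPM in Lgr5+ libraries. Its log2 fold change of −1.38 passed on the RPM scale (limma adjusted p = 0.0296), and missed the threshold with median-of-ratios scaling (0.110), in edgeR (0.118) and when either Reg4+ DCS library was left out (0.0684 without replicate 1 and 0.116 without replicate 2). Neither Ccl20 nor Ccl25 passed the filter without either Lgr5+ library, so the direction of both was set by the filter.

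Of 23 chemokine receptors, 10 were among the entries and 2 were tested. Both were higher in Lgr5+ cells, as were 26.9% of all tested genes. Cxcr7 (now Ackr3), an atypical receptor that takes up Cxcl12, had 0.264 and 0.409 RPM in Reg4+ DCS libraries, against 16.9 and 9.43 RPM in Lgr5+ libraries (log2 fold change −3.36, limma adjusted p = 0.000792). It did not pass the filter without either Lgr5+ library, so its direction was set by the filter. Cxcr2, the receptor of neutrophil-attracting Cxcl chemokines, had 24.7 and 44.1 RPM in Reg4+ DCS libraries, against 72.0 and 77.8 RPM in Lgr5+ libraries. Its log2 fold change of −1.16 (limma adjusted p = 0.0231) missed the threshold under median-of-ratios scaling (0.0910), in edgeR (0.0963) and without Reg4+ DCS replicate 1 (0.117).

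The Kit ligand was higher in Lgr5+ cells, and the Kit receptor narrowly missed the threshold. Kitl had 9.66 and 8.19 RPM in Reg4+ DCS libraries, against 43.0 and 44.6 RPM in Lgr5+ libraries (chr10:100015630-100100416, plus strand). Its libraries were close within each population and far apart between them. The mean of 8.93 ± 1.04 RPM for Reg4+ DCS and 43.8 ± 1.13 RPM for Lgr5+ cells gave a level 4.91-fold higher in Lgr5+ cells (between 4.54 and 5.35 when a library was left out) and a log2 fold change of −2.18 (SE 0.27, limma adjusted p = 0.00108). The log2 fold change was smaller under median-of-ratios scaling (−1.70) and in edgeR (−1.77). The call was kept under each of 13 alternatives, with an adjusted p of at most 0.0110.

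Kit had 99.5 and 143 RPM in Reg4+ DCS libraries, against 78.8 and 28.2 RPM in Lgr5+ libraries (chr5:75574916-75656722, plus strand). Both Reg4+ DCS libraries were above both Lgr5+ libraries, and the Lgr5+ libraries differed 2.80-fold from each other. The mean was 121 ± 30.8 RPM for Reg4+ DCS and 53.5 ± 35.8 RPM for Lgr5+ cells, a ratio of 2.27, and the log2 fold change of 1.32 (SE 0.44, 95% interval 0.30 to 2.34) fell just outside the threshold (limma adjusted p = 0.0502). The ratio was 4.31 without Lgr5+ replicate 1 and 1.54 without Lgr5+ replicate 2. Leaving out Reg4+ DCS replicate 1 or 2 gave a log2 fold change of 1.58 or 1.06. Leaving out Lgr5+ replicate 1 or 2 gave 2.05 or 0.59. In each of these fits the lone library of a group was assumed to vary like the other group. With all 4 libraries, the threshold was passed under median-of-ratios scaling (adjusted p = 0.0112), with a pseudocount of 5 (0.0498), with a replicate block (0.000881), in edgeR (0.0246) and with the first part alone of the Reg4+ DCS columns (0.0480). It was missed with a pseudocount of 0.5 (0.0509), no filter (0.101), no trend (0.0692) and the second part alone of those columns (0.0956). The ratio of Kit to Kitl on the RPM scale was 10.3 and 17.5 in Reg4+ DCS libraries and 1.83 and 0.631 in Lgr5+ libraries.

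Markers of other crypt cells moved with Kit between the Lgr5+ libraries. As the ratio of Lgr5+ replicate 1 to replicate 2, Kit stood at 2.80, Reg4 at 2.19, and Lgr5 at 0.953. The median ratio over tested markers was 1.80 for goblet cells (12 of 14 higher in replicate 1), 3.01 for tuft cells (11 of 11), 2.45 for enteroendocrine cells (6 of 6), 4.35 for absorptive colonocytes (12 of 13) and 0.868 for stem and transit-amplifying cells (2 of 13), against 1.02 over all tested genes. Of the other members, Ccl6 (1.88), Il18 (1.78), Ccl9 (1.61), Pdgfa (1.44), Vegfa (1.40) and Ccl28 (1.11) were also higher in replicate 1, and Kitl (0.964), Tnfsf10 (0.935) and Cxcl16 (0.695) were not. The part of these cells in the levels of the 10 genes was not tested. Mast cells and the pacemaker cells of the gut wall also express Kit. Of 10 mast cell markers, the entries held 2. Cma1, a chymase, was at 164 and 292 RPM in Reg4+ DCS libraries, against 27.1 and 18.4 RPM in Lgr5+ libraries, and Tpsb2, a tryptase, was at 0.362 and 0.166 RPM in Reg4+ DCS libraries, against 0 RPM in the Lgr5+ pair. Stromal and endothelial markers, of which 8 of 15 were among the entries, summed to 161 and 183 RPM in Reg4+ DCS libraries and 71.7 and 52.0 RPM in Lgr5+ libraries. Most of that sum was Ano1, a chloride channel of pacemaker cells and of some epithelia, at 157 and 178 RPM in Reg4+ DCS libraries and 59.9 and 44.4 RPM in Lgr5+ libraries, while Col1a1, Acta2, Pecam1 and Etv1 had a listed value of 0 in both Reg4+ DCS libraries.

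All 18 genes of the Kit signalling list were among the entries and 15 were tested, of which 0 were higher in Reg4+ DCS cells and 4, Kitl among them, were higher in Lgr5+ cells. The list median was −0.57, against −0.47 over all tested genes, of which 7.18% and 26.9% were called in these directions. Pik3r1, a regulatory subunit of phosphoinositide 3-kinase, had 17.05 and 17.3 RPM in Reg4+ DCS libraries, against 69.9 and 70.9 RPM in Lgr5+ libraries (log2 fold change −1.97, limma adjusted p = 0.00102). Ptpn6 (SHP-1), a phosphatase that damps Kit signals and is abundant in leukocytes and tuft cells, had 10.6 and 14.0 RPM in Reg4+ DCS libraries, against 140 and 45.1 RPM in Lgr5+ libraries (log2 fold change −2.61, limma adjusted p = 0.00536, and 0.0571 without Reg4+ DCS replicate 1). The tuft cell marker Dclk1 stood at 0.793 and 0.409 RPM in Reg4+ DCS libraries, against 286 and 83.2 RPM in Lgr5+ libraries. Of 14 tuft markers among the entries, 11 were tested, 10 were higher in Lgr5+ cells and 7 had a listed value of 0 in both Reg4+ DCS libraries. Those 10 were under 5 RPM in both Reg4+ DCS libraries and did not pass the filter without either Lgr5+ library. Their direction was therefore set by the filter. The list sums were 1369 and 1695 RPM in Reg4+ DCS libraries and 3015 and 1723 RPM in Lgr5+ libraries, and without Krt18, a keratin of the whole epithelium, they were 4.63 and 5.003 RPM in Reg4+ DCS libraries and 1298 and 393 RPM in Lgr5+ libraries. Sos1, a Ras exchange factor, had a log2 fold change of −1.07 (limma adjusted p = 0.0174), and it missed the threshold with median-of-ratios scaling (0.103), in edgeR (0.108), without Reg4+ DCS replicate 1 (0.0779) and without Lgr5+ replicate 2 (0.0624).

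**Figure D2:**
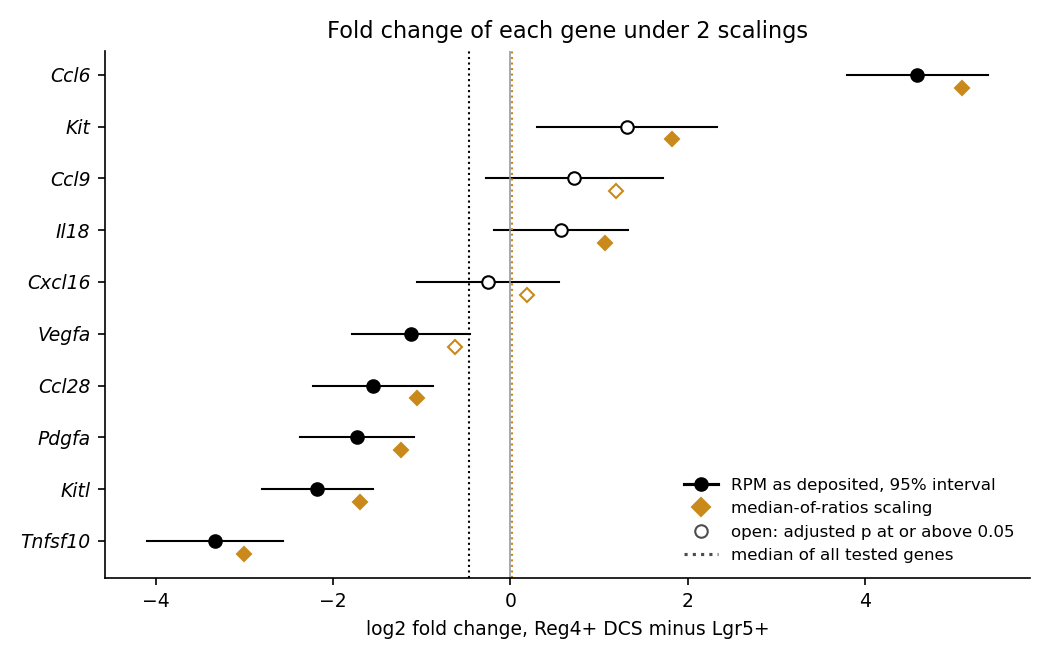
Log2 fold change (Reg4+ DCS minus Lgr5+) of each of the 10 genes on the deposited RPM scale (circles, with 95% intervals from limma) and under median-of-ratios scaling (diamonds); open symbols have an adjusted p at or above 0.05, and dotted lines are the medians of all tested genes, −0.47 and 0.02. Kit and Il18 are open on the RPM scale and filled under the other scaling, Vegfa is the reverse, and Cxcl16 changes sign.

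Between the cytokines, Tnfsf10 changed and Il18 did not pass the test. Il18 had 29.1 and 35.2 RPM in Reg4+ DCS libraries and 28.2 and 15.8 RPM in Lgr5+ libraries (chr9:50554827-50581840, plus strand). Both Reg4+ DCS libraries lay above both Lgr5+ libraries, though Reg4+ DCS replicate 1 and Lgr5+ replicate 1 were almost level. The mean was 32.1 ± 4.33 RPM for Reg4+ DCS and 22.0 ± 8.77 RPM for Lgr5+ cells, and the log2 fold change was 0.57 (95% interval −0.19 to 1.33, limma adjusted p = 0.204). Under median-of-ratios scaling it was 1.06 and passed (adjusted p = 0.0267). Bco2 and Tex12 overlap Il18 on the opposite strand, and Bco2 had 3.49 and 5.77 RPM in Reg4+ DCS libraries, against 4.42 and 5.66 RPM in Lgr5+ libraries.

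The list of the interleukin-1 family and its processing had 29 genes, of which 18 were among the entries and 11 were tested, and 1 was higher in Reg4+ DCS cells, while 2 were called higher in Lgr5+ cells. The list median was −0.06, against −0.47 over all tested genes, of which 7.18% and 26.9% were called in these directions. Nlrp6, an inflammasome sensor of the intestinal epithelium linked to Il18 processing, had 9.28 and 5.85 RPM in Reg4+ DCS libraries, against 175 and 207 RPM in Lgr5+ libraries. Its level was 25.3-fold higher in Lgr5+ cells (log2 fold change −4.51, limma adjusted p = 0.000143). Casp1, the protease that cleaves the Il18 precursor, had 34.7 and 58.3 RPM in Reg4+ DCS libraries and 106 and 75.3 RPM in Lgr5+ libraries (log2 fold change −0.97, limma adjusted p = 0.0441). Its call was lost under 7 of 13 alternatives, among them median-of-ratios scaling (0.208), edgeR (0.211), and leaving out Reg4+ DCS replicate 1 (0.234) or Lgr5+ replicate 1 (0.150). Naip1, a sensor of bacterial secretion needles, had 29.6 and 30.7 RPM in Reg4+ DCS libraries and 17.9 and 10.1 RPM in Lgr5+ libraries (log2 fold change 1.11, limma adjusted p = 0.0338), and it missed the threshold when either Reg4+ DCS library was left out (0.125 without replicate 1 and 0.104 without replicate 2) and without Lgr5+ replicate 2 (0.180). Il18r1, the receptor chain that binds Il18, was listed at 0 in either Reg4+ DCS library, against 0.192 and 0.629 RPM in Lgr5+ libraries.

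Tnfsf10 (TRAIL), which engages death receptors, had 0.453 and 0.666 RPM in Reg4+ DCS libraries, against 14.2 and 15.2 RPM in Lgr5+ libraries (chr3:27317028-27342427, plus strand). Both Lgr5+ libraries were well above both Reg4+ DCS libraries and close to each other. The mean of 0.559 ± 0.151 RPM for Reg4+ DCS and 14.7 ± 0.703 RPM for Lgr5+ cells gave a level 26.3-fold higher in Lgr5+ cells and a log2 fold change of −3.34 (SE 0.33, limma adjusted p = 0.000426). The Reg4+ DCS levels rest on 5 and 4 reads, with exact 95% Poisson intervals of 1.62 to 11.7 and 1.09 to 10.2 reads, against 74 and 121 reads in Lgr5+ libraries. These intervals cover counting error only. All of these Reg4+ DCS reads came from the first of the parts averaged in each column, and the second part held 0 reads in both. In that second part, 1120 genes were at 0 in both Reg4+ DCS columns while the first part was above 0, so that a 0 there cannot be told apart from a gene left out of that part. With the first part alone Tnfsf10 stood at 0.905 and 1.33 RPM in Reg4+ DCS libraries, the level in Lgr5+ cells was 13.2-fold higher, and the call was kept (adjusted p = 0.00117). Without either Lgr5+ library Tnfsf10 did not pass the filter. Its direction was therefore set by the filter, except in the fit with no filter, where the call was kept (limma adjusted p = 0.00585). Leukocytes also make Tnfsf10, and their summed markers, given above and there mostly Ptprc and Lcp1, were higher in Lgr5+ libraries. The ratio of Lgr5+ replicate 1 to replicate 2 was 0.935 for Tnfsf10. For the 2 leukocyte markers tested it was 4.203 (Ptprc) and 0.718 (Lcp1). The part of leukocytes in the Tnfsf10 level was not tested.

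Of 17 TNF superfamily ligands, 9 were among the entries and 3 were tested, and Tnfsf10 was the 1 that changed. It was called higher in Lgr5+ cells, as were 26.9% of all tested genes, with its direction set by the filter. No other tested ligand of this list was called. Of 16 genes of the death receptor and TRAIL list, all were among the entries and 13 were tested, and 2 were higher in Reg4+ DCS cells, while 3 were called higher in Lgr5+ cells. The list median was −0.27, against −0.47 over all tested genes, of which 7.18% and 26.9% were called in these directions. Bid, a pro-apoptotic protein cleaved by caspase-8, had 4.30 and 8.10 RPM in Reg4+ DCS libraries, against 21.9 and 22.2 RPM in Lgr5+ libraries (log2 fold change −1.73, limma adjusted p = 0.00795). Casp8, the initiator caspase of death receptors, had 20.4 and 35.9 RPM in Reg4+ DCS libraries, against 72.2 and 68.5 RPM in Lgr5+ libraries (log2 fold change −1.34, limma adjusted p = 0.0129), and it missed the threshold when Reg4+ DCS replicate 1 was left out (0.0686) and with the second part alone of the Reg4+ DCS columns (0.0541). Tnfrsf10b, the death-inducing TRAIL receptor of the mouse, had 14.4 and 11.3 RPM in Reg4+ DCS libraries and 33.0 and 22.2 RPM in Lgr5+ libraries. Its log2 fold change of −1.03 (limma adjusted p = 0.0370) was lost under 7 of 13 alternatives, among them median-of-ratios scaling (0.218) and leaving out Reg4+ DCS replicate 1 (0.0825), Reg4+ DCS replicate 2 (0.123) or Lgr5+ replicate 1 (0.204). Tnfrsf23, a decoy TRAIL receptor of the mouse, was higher in Reg4+ DCS cells, at 8.13 and 6.88 RPM in Reg4+ DCS libraries and 1.34 and 2.26 RPM in Lgr5+ libraries (log2 fold change 1.62, limma adjusted p = 0.0110, and 0.0780 without Lgr5+ replicate 1). It did not pass the filter without either Reg4+ DCS library, so its direction was set by the filter.

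Both growth factors were higher in Lgr5+ cells. Vegfa had 42.6 and 65.2 RPM in Reg4+ DCS libraries, against 137 and 98.2 RPM in Lgr5+ libraries (chr17:46016993-46032369, minus strand). Both Lgr5+ libraries were above both Reg4+ DCS libraries. The mean of 53.9 ± 16.0 RPM for Reg4+ DCS and 118 ± 27.4 RPM for Lgr5+ cells gave a level 2.18-fold higher in Lgr5+ cells and a log2 fold change of −1.12 (SE 0.29, limma adjusted p = 0.0210). It missed the threshold with median-of-ratios scaling (log2 fold change −0.62, adjusted p = 0.0899), in edgeR (−0.62, adjusted p = 0.0882), without Reg4+ DCS replicate 1 (adjusted p = 0.130), without Lgr5+ replicate 1 (0.0676) and with the second part alone of the Reg4+ DCS columns (0.0556).

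Pdgfa had 17.04 and 19.5 RPM in Reg4+ DCS libraries, against 75.1 and 52.2 RPM in Lgr5+ libraries (chr5:138976014-138997370, minus strand). The groups did not overlap. The mean of 18.3 ± 1.72 RPM for Reg4+ DCS and 63.6 ± 16.2 RPM for Lgr5+ cells gave a level 3.49-fold higher in Lgr5+ cells (between 2.86 and 4.11 when a library was left out) and a log2 fold change of −1.73 (SE 0.28, limma adjusted p = 0.00323). The log2 fold change was smaller under median-of-ratios scaling (−1.23) and in edgeR (−1.26). The call was kept under each of 13 alternatives, with an adjusted p of at most 0.0305. An antisense gene, 6330403L08Rik (chr5:138995056-139000577), overlaps Pdgfa but does not cover its 3′ end, the end that CEL-seq reads. The ratio of Vegfa to Pdgfa on the RPM scale was 2.50 and 3.35 in Reg4+ DCS libraries and 1.82 and 1.88 in Lgr5+ libraries.

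Of 17 VEGF and PDGF ligands, receptors and co-receptors, 11 were among the entries and 4 were tested, and Vegfa and Pdgfa were the 2 that changed. Those 2, already described above, were called higher in Lgr5+ cells, as were 26.9% of all tested genes. The other 2 tested genes of this list, Vegfb and Nrp2, were not called. Nrp1, a co-receptor of Vegfa, was at 1.51 and 1.69 RPM in Reg4+ DCS libraries, against 5.76 and 3.90 RPM in Lgr5+ libraries, and did not pass the filter. Vegfa is a known target of hypoxia-inducible factors. The 15 genes of the hypoxia list were all tested, of which 3 were higher in Reg4+ DCS cells, while 2 were called higher in Lgr5+ cells. The list median was −0.25, against −0.47 over all tested genes, of which 7.18% and 26.9% were called in these directions. Ndrg1, a stress-response gene, had 559 and 810 RPM in Reg4+ DCS libraries, against 87.2 and 43.7 RPM in Lgr5+ libraries (log2 fold change 3.42, limma adjusted p = 0.000474). P4ha1, a collagen prolyl hydroxylase subunit, had 20.001 and 30.9 RPM in Reg4+ DCS libraries, against 8.07 and 2.89 RPM in Lgr5+ libraries (log2 fold change 2.12, limma adjusted p = 0.00938, and 0.0630 without Reg4+ DCS replicate 2). Car9, a carbonic anhydrase, ran the other way, with 12.5 and 17.6 RPM in Reg4+ DCS libraries, against 52.3 and 48.1 RPM in Lgr5+ libraries (log2 fold change −1.69, limma adjusted p = 0.00346). Egln3, a prolyl hydroxylase that marks hypoxia-inducible factors for decay, had a log2 fold change of −1.08 (limma adjusted p = 0.0280), and its call was lost under 8 of 13 alternatives, median-of-ratios scaling (0.123) and each left-out library included (from 0.0507 to 0.142).

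Of 39 other secreted growth factors and cytokines, 29 were among the entries and 12 were tested, and 1 was higher in Reg4+ DCS cells, while 6 were called higher in Lgr5+ cells. The list median was −0.88, against −0.47 over all tested genes, of which 7.18% and 26.9% were called in these directions. Gdf15, a stress-induced member of the TGF-beta superfamily, had 34.4 and 66.9 RPM in Reg4+ DCS libraries, against 411 and 282 RPM in Lgr5+ libraries (log2 fold change −2.80, limma adjusted p = 0.00100). Mif, macrophage migration inhibitory factor, had 92.7 and 74.7 RPM in Reg4+ DCS libraries, against 194 and 285 RPM in Lgr5+ libraries (log2 fold change −1.49, limma adjusted p = 0.00461). Lif, an interleukin-6 family cytokine, had 1.88 and 3.13 RPM in Reg4+ DCS libraries, against 11.5 and 9.18 RPM in Lgr5+ libraries (log2 fold change −1.71, limma adjusted p = 0.00863, and 0.0622 without Reg4+ DCS replicate 1), and it did not pass the filter without either Lgr5+ library. The direction of Lif was therefore set by the filter. Cyr61, a matricellular protein, was the 1 that was higher in Reg4+ DCS cells, with 390 and 594 RPM in Reg4+ DCS libraries, against 187 and 165 RPM in Lgr5+ libraries (log2 fold change 1.45, limma adjusted p = 0.00505). Over the 9 lists, 85 genes were tested, 75 of them outside the 10 genes. Of these 75, 8 were higher in Reg4+ DCS cells, while 20 were called higher in Lgr5+ cells on the RPM scale. The shares of all tested genes called in these directions were 7.18% and 26.9%. Under median-of-ratios scaling, 8 and 11 of those list genes kept their call. Of the 23 list genes named, 8 kept their call under each of 13 alternatives (Pik3r1, Nlrp6, Bid, Car9, Ndrg1, Gdf15, Mif and Cyr61).

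**Figure D3:**
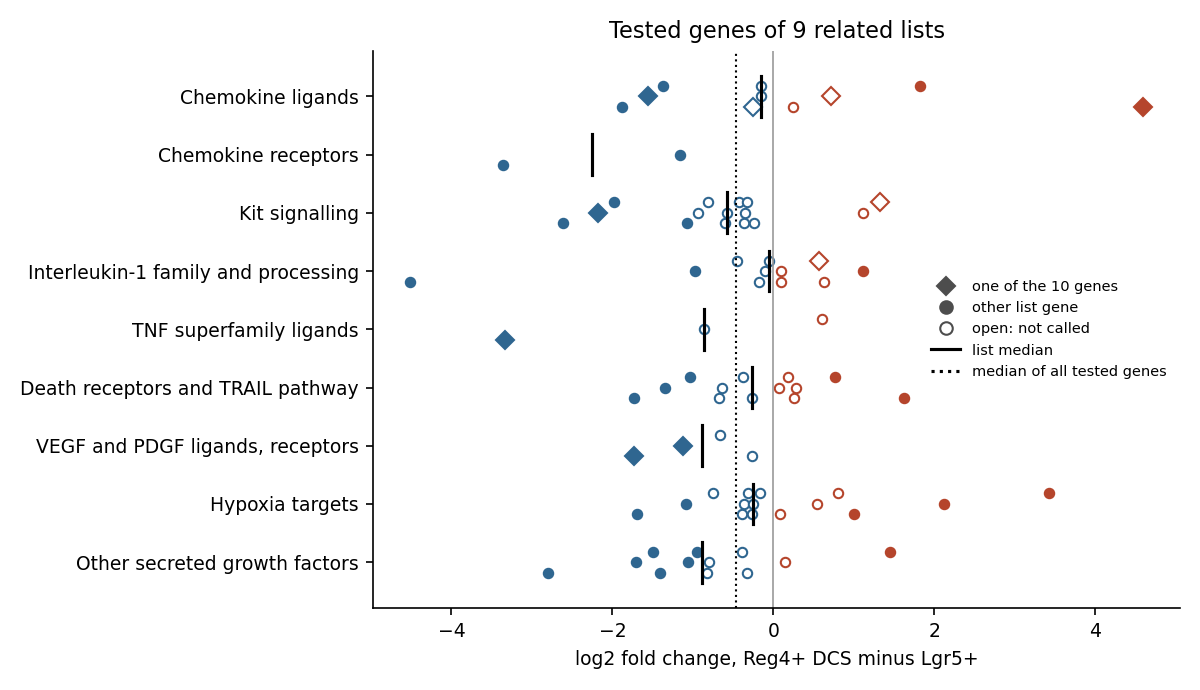
Log2 fold change (Reg4+ DCS minus Lgr5+) of the tested genes of 9 lists of related genes, with the 10 genes as diamonds, the other list genes as circles, open symbols for genes that were not called, red for higher and blue for lower in Reg4+ DCS cells, a bar at each list median and a dotted line at the median of all tested genes (−0.47). Ccl6 at 4.59 lies to the right of every other tested gene of the 9 lists, and Nlrp6 at −4.51 lies to the left of them.

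By mean level, the order of the 10 genes differed between the populations. In Reg4+ DCS cells it was Ccl6, Kit, Vegfa, Il18, Ccl28, Pdgfa, Ccl9, Kitl, Cxcl16 and Tnfsf10. Neighbours in that order did not overlap between libraries, except Ccl28 with Pdgfa and Pdgfa with Ccl9. In Lgr5+ cells the order was Vegfa, Ccl6, Pdgfa, Ccl28, Kit, Kitl, Il18, Tnfsf10, Ccl9 and Cxcl16. There each of the first 6 overlapped its neighbour within that run, as Ccl9 overlapped Cxcl16, and the other neighbours did not. From the highest to the lowest of the 10 genes, mean levels ran from 1847 to 0.559 RPM in Reg4+ DCS cells and from 118 to 7.03 RPM in Lgr5+ cells.

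**Figure D4:**
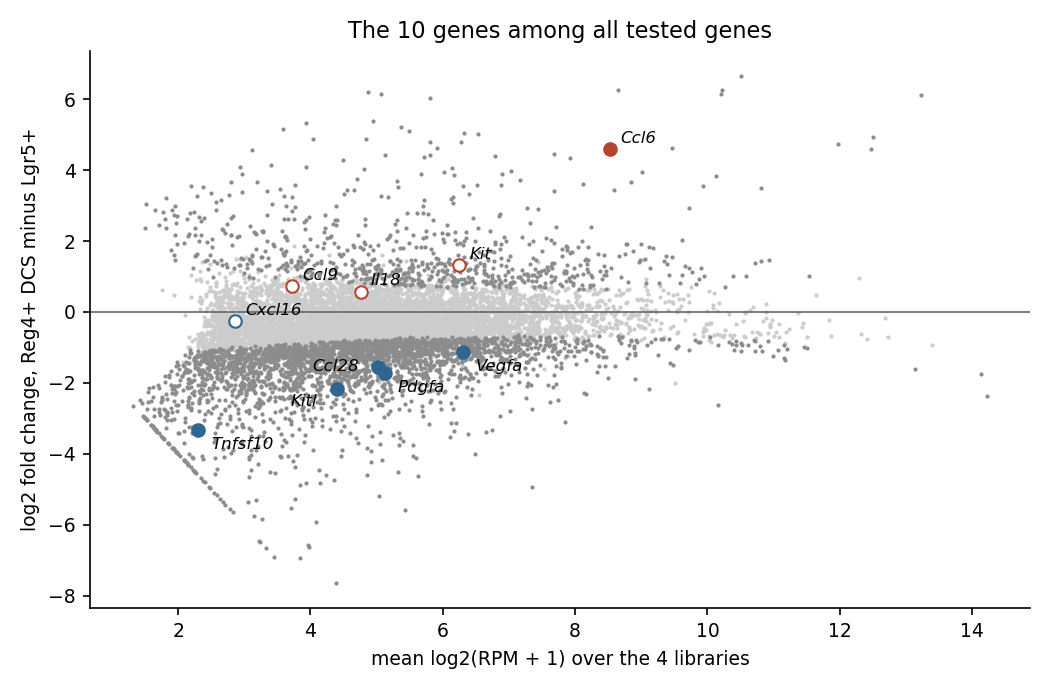
Log2 fold change (Reg4+ DCS minus Lgr5+) against the mean log2(RPM + 1) over the 4 libraries for all 10183 tested genes, with called genes in dark grey, other genes in light grey, and the 10 genes as large circles, filled where called, red for higher and blue for lower in Reg4+ DCS cells. Ccl6 lies at 4.59 with the highest mean level of the 10 genes, and Tnfsf10 at −3.34 with the lowest.

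For Ccl6, Tnfsf10 and Kitl, which had the largest absolute log2 fold changes of the 10, the genes with the most similar values were found by the root mean square difference in log2(RPM + 1) over the 4 libraries. Those nearest to Ccl6 were Hgfac (0.63), Hsd11b2 (0.64) and Qsox1 (0.66). Those nearest to Tnfsf10 were Tlr2 (0.20), Pear1 (0.26) and AI747448 (0.26). Those nearest to Kitl were Ctc1 (0.12), Haus4 (0.13) and Ska3 (0.16). Hgfac, for one, had 1146 and 1400 RPM in Reg4+ DCS libraries and 127 and 104 RPM in Lgr5+ libraries. Tlr2 had 0.529 and 0.409 RPM in Reg4+ DCS libraries and 11.3 and 14.5 RPM in Lgr5+ libraries.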

How the data were processed

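RNA of Reg4+ DCS and Lgr5+ cells, sorted into Trizol from mouse colon, was measured in 2 libraries per population by CEL-seq, per the labels' protocols. Per the submitters' processing notes, the tools included BWA 0.6.2-r126 and the build was mm10. How reads were counted per gene, with which annotation and filter, and whether strand and molecular identifiers were used are points not given in the sources used. The authors deposited RPM values for 14519 genes in 4 columns. The Lgr5+ values were whole reads for 100% of genes, within 0.01 reads. Each Reg4+ DCS column decoded as the mean of 2 scaled parts, for 99.8% of genes in replicate 1 and 98.6% in replicate 2, and was counted as 1 replicate. No source used here says what these parts are. The reads of Ccl6 in Reg4+ DCS replicate 2 were among those not decoded uniquely. RPM is relative to all reads of a column, so a few abundant transcripts can lower all other values, and reads without molecular identifiers are not independent molecules.

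Tests were run with limma 3.58.1 (R 4.3.3; linear models with eBayes and a trend, two-sided) on log2(RPM + 1), for genes with at least 5 RPM in at least 2 libraries, with Benjamini-Hochberg adjustment over all 10183 tested genes and calls at an adjusted p under 0.05. The p-values measure only the spread between these libraries, and with a library left out the lone library of its group is assumed to vary like the other group. Fold changes on the log2(RPM + 1) scale understate the change of low genes, and ratios are of mean RPM. Alternatives were median-of-ratios scaling, pseudocounts of 0.5 and 5, no filter, no trend, a replicate block and each library left out. After seeing the data, edgeR 4.0.16 (quasi-likelihood, TMM) on recovered reads (ambiguous values entered as RPM times the column's reads), which called 2754 genes, and each part alone of the Reg4+ DCS columns were added. The fits were tested on simulated data. The 10 genes and the lists were chosen with earlier results of these data known. Named genes were the 10, both sort markers, up to 4 called genes per list with the largest absolute log2 fold change, and the 3 genes nearest to each of the 3 members with the largest changes. Other genes (receptors, cell markers and overlapping genes) were named after their values were seen. Symbols were used as listed, 5 list genes being matched through a synonym. Coordinates are from GENCODE M21, whose assembly GRCm38 is mm10, and 9 of the 10 genes (not Cxcl16) matched the RefSeq promoter table.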

Additional observations from a re-analysis of the deposited data

How the results depend on the processing

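Of 13 alternatives, Ccl6, Kitl and Pdgfa kept their direction and call in all. Tnfsf10 kept its call in the 11 in which it was tested. Its direction was set by the filter in each of these except the fit with no filter. Genes called numbered 3475, with 1419 to 2637 when 1 library was left out (1419 without Reg4+ DCS replicate 1 and 2132 without Lgr5+ replicate 2). Members higher in Reg4+ DCS cells numbered 1, with 1 to 2 when 1 library was left out, 3 under median-of-ratios scaling, and 2 with a pseudocount of 5, in edgeR on recovered reads and with the first part alone of the Reg4+ DCS columns. Members higher in Lgr5+ cells numbered 5, with 3 to 5 when 1 library was left out and 3 in edgeR. List genes called numbered 34, with 17 to 26 when 1 library was left out. Cxcl16, never called, changed sign under median-of-ratios scaling (0.19) and in edgeR (0.10). Apart from the left-out libraries, where fewer samples entered the fit, the cause was not tested.

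With a replicate block, 4444 genes were called, and 2 members (Ccl6 and Kit) were higher in Reg4+ DCS cells. The deviations of the replicate 1 libraries from their group means were weakly correlated (r = 0.21 over 10183 genes). With 2 libraries per group, replicate 2 gives the same r by construction. This value cannot decide whether the replicate numbers pair the libraries.

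Depth limits Tnfsf10 most, with 5 and 4 reads in Reg4+ DCS libraries.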
